A study of Mus musculus with 6 samples.

Results

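The genes described here were 10 secreted factors, receptors and channels known from the choroid plexus, *Ttr*, *Enpp2*, *Sostdc1*, *Igf2*, *Igfbp2*, *Folr1*, *Htr2c*, *Prlr*, *Kl* and *Clic6*. They were chosen by name, as 10 of the 27998 genes listed for the hippocampus and 31053 listed for the cortex, and each was found in all 6 libraries by its symbol. The question was how strongly each gene was detected in choroid plexus cells, whether fibroblasts and ependymal cells also carried it, and how much of it turned up in barcodes of other cell types.

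The choroid plexus is a sheet of epithelium over a core of vessels and fibroblasts that hangs into the brain ventricles and makes the cerebrospinal fluid, next to ciliated ependymal cells that line the ventricle wall. Its epithelial cells secrete carrier and growth factor proteins into the fluid and take up vitamins and hormones from the blood through receptors on their surface. In droplet sequencing, RNA released from broken cells floats in the suspension and can be captured in any droplet, and an RNA as abundant as *Ttr* is therefore often seen outside the cells that make it.

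The libraries came from female C57Bl/6J mice with no genetic change or treatment, 3 from the cerebral cortex at 3 weeks of age and 3 from the hippocampus at 5 weeks. Tissue was digested with enzymes, cleared of myelin on a Percoll gradient and loaded on the 10x Genomics droplet platform without sorting. For each region, cells of 3 mice were pooled into 1 suspension and run as 3 technical replicates, so each region was 1 biological sample. Region, age and preparation changed together, hence their parts in any difference cannot be told apart, and no test was made and no p-value is given.

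The hippocampal libraries held 4894 to 5232 barcodes and 43963706 to 50024850 unique molecular identifiers (UMIs, each counting 1 captured RNA molecule), and the cortical libraries held 5834 to 6121 barcodes and 39662203 to 42097490 UMIs. After barcodes outside 250 to 6000 genes or with 25% or more mitochondrial UMIs were left out, 14209 hippocampal and 13318 cortical barcodes remained. Levels are UMIs of a gene per 1000000 UMIs of the same barcodes (CPM), with the SD over the 3 technical replicates. Each molecule is counted once at its 3′ end, so CPM is not divided by gene length. All intervals are 95% intervals and cover counting error only.

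Clusters were built without the 10 genes and named from 16 marker lists that leave them out. In the hippocampus, 2 clusters with 823 barcodes were choroid plexus-like. All 16 choroid plexus markers had UMIs in them, and together these reached 6692 to 8074 CPM by library. Of the markers, 14 counted for naming in the cluster of 200 barcodes and 5 in the cluster of 623 barcodes. In microglia-like barcodes the same list reached 9.86 to 15.6 CPM. The name of the class thus rested on genes outside the set. Markers of other cells were also present in these barcodes, with the ependymal list at 626 to 861 CPM and the microglial list at 400 to 1555 CPM, and their part in the values below was not tested. No cortical cluster was choroid plexus-like or ependymal-like.

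Some barcode sequences occurred in more than 1 library. In the hippocampus, 339 of 14749 distinct barcodes were shared, 248 of them by all 3 libraries, against 39 of 17893 in the cortex. Between the cortical and the hippocampal libraries, which were separate preparations, 69 sequences were shared. The choroid plexus-like class held 555 shared barcodes of 823. Among its 239 distinct shared barcodes, 57 had a deepest copy with more than 6000 genes and a median of 111392 UMIs, while the next copy had a median of 879 UMIs, lower by a median factor of 127 (range 105 to 156). In the other 182, the copies differed little in depth, by a median factor of 1.23. The cause was not tested. Levels are therefore also given for the 268 choroid plexus-like barcodes found in 1 library only.

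The 2 clusters differed in depth. The deep cluster held 200 barcodes with a median of 7170 UMIs, of which 3 were shared. The shallow cluster held 623 barcodes with a median of 767 UMIs, of which 552 were shared. The upper limit on genes left out 377 hippocampal barcodes with more than 6000 genes. Of these, 79 fell in choroid plexus-like clusters when clustering was repeated without that limit. These 79, with a median of 92990 UMIs, are the barcodes over 6000 genes described below. The class made up 6.72%, 5.20% and 5.45% of kept barcodes in libraries 1 to 3, a mean of 5.79% ± 0.817, and 1.99% once shared barcodes were removed.

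All 10 genes were higher in choroid plexus-like barcodes than in all other kept hippocampal barcodes, by at least 2-fold in each of the 3 libraries, with 5 CPM added to both sides. By the same rule 7.25% of 8996 genes with an average of at least 10 CPM were higher and 34.9% were lower. The median fold of the 10 genes was 85.8, whereas that of all genes tested was 0.578. With 1 abundant RNA in the denominator the other genes are pushed down: counted per 1000000 UMIs other than *Ttr*, the median of all genes rose by 0.35 on the log2 scale to a fold of 0.735, 10.6% of genes were higher and 25.5% lower, and the other 9 genes of the set all remained higher. No gene of the set came near the limit of 2-fold, since the smallest fold in any library was 9.56, for *Igf2*. Because 5 CPM were added, the folds understate the difference of genes that were nearly absent elsewhere.

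**Figure D1:**
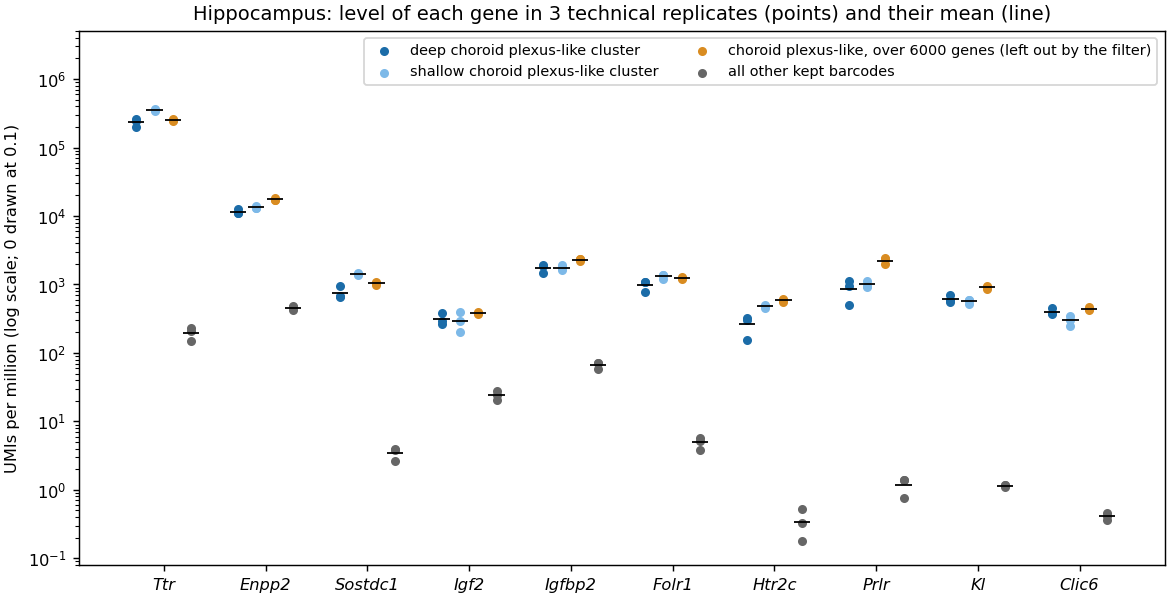
Level of each gene in the hippocampus (UMIs per 1000000, log scale) in the deep and the shallow choroid plexus-like cluster, in choroid plexus-like barcodes over 6000 genes and in all other kept barcodes. Points are the 3 technical replicates and lines their means. All 10 genes lay higher in each choroid plexus-like group than in the other barcodes, with the smallest gap for *Igf2*.

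Of the secreted factors, *Ttr* stood far above the rest. It encodes transthyretin, which carries thyroxine and, bound to retinol-binding protein, vitamin A. Its level was 266403, 226020 and 271334 CPM in the choroid plexus-like barcodes of libraries 1 to 3, or 254586 ± 24862 CPM, and 238095 CPM without shared barcodes. Pooled over the libraries, 25.7% of the UMIs in these barcodes were of this 1 gene. In the other kept barcodes the level was 194 ± 41.7 CPM, a 1279-fold difference that ranged from 1145 to 1483 over the libraries. The gene lies at chr18:20665280-20674321 on the forward strand of GRCm38.

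*Enpp2* encodes autotaxin, a secreted enzyme that makes the lipid mediator lysophosphatidic acid (chr15:54838901-54952892, reverse strand). Its level was 11575, 11514 and 12718 CPM, or 11936 ± 678 CPM, and 11694 CPM without shared barcodes. The replicates lay within a narrow range, and the fold over the other barcodes was 26.0, held down by a level of 455 ± 33.5 CPM in those barcodes, which included the oligodendrocytes described further on.

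*Igfbp2*, a secreted binding protein for insulin-like growth factors (chr1:72824503-72852474, forward strand), was at 1834, 1551 and 1872 CPM, or 1753 ± 175 CPM. *Igf2*, the growth factor that it can bind (chr7:142650766-142666816, reverse strand), was at 269, 311 and 355 CPM, or 312 ± 42.7 CPM. Removing shared barcodes left both within their SD, at 1782 and 311 CPM. Their folds were 24.2 and 10.7. Exons of *Igf2* overlap those of *Igf2os* on the other strand and of Gm49394 on the same strand. Of these, only *Igf2os* is listed among the counted genes.

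*Sostdc1* encodes a secreted inhibitor of bone morphogenetic proteins that also modulates Wnt signalling (chr12:36314139-36318452, forward strand). It was at 1047, 807 and 776 CPM, with library 1 above the other two, or 877 ± 148 CPM, and at 786 CPM without shared barcodes. Against 3.49 ± 0.707 CPM in the other barcodes, the fold was 104.

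Among the receptors, *Folr1*, the folate receptor alpha that moves folate from blood to fluid (chr7:101858331-101870788, reverse strand), was at 1132, 895 and 1121 CPM, or 1050 ± 134 CPM, with a fold of 106. *Prlr*, the prolactin receptor (chr15:10177238-10349180, forward strand), varied most between replicates relative to its mean, at 1103, 618 and 945 CPM, or 888 ± 247 CPM. Library 2 was the lowest for both genes. The fold of *Prlr* was 144, the largest after *Ttr*, and its exons overlap Gm21973 on the same strand.

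*Kl* encodes klotho, a membrane protein that serves as co-receptor for an endocrine fibroblast growth factor and is also shed into the fluid (chr5:150952607-150993817, forward strand). It was at 598, 555 and 682 CPM, or 611 ± 64.6 CPM, with a fold of 100.2. *Htr2c*, a serotonin receptor known for its high density in this epithelium (chrX:146962513-147197277, forward strand), was at 331, 220 and 353 CPM, or 301 ± 71.1 CPM. Its level elsewhere was 0.344 ± 0.174 CPM and its fold was 57.3. *Clic6*, of the chloride intracellular channel family (chr16:92485736-92541243, forward strand), was at 345, 420 and 378 CPM, or 381 ± 37.5 CPM, with a fold of 71.3. For *Clic6* library 2 was the highest, whereas for *Kl* and *Htr2c* it was the lowest. Without shared barcodes *Folr1*, *Prlr*, *Kl*, *Htr2c* and *Clic6* were at 1012, 895, 620, 266 and 392 CPM, each within its SD of the mean with them.

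The DNA just upstream of *Kl* and *Htr2c* is shown because both were higher in choroid plexus-like barcodes and because, of the 5 genes of the set with an entry in the RefSeq promoter table, only these had a single start. The sequences are the 250 bases before the start on GRCm38.p6, credited to RefSeq, at chr5:150952357-150952606 and chrX:146962263-146962512, both on the forward strand. Capitals mark matches, on either strand, to the motif GGGCGG of the general factor Sp1, the motif CCAAT of NF-Y, the motif TATAAA of TATA-binding protein and the motif TAATCC of Otx2, a regulator of the choroid plexus.
Kl upstream: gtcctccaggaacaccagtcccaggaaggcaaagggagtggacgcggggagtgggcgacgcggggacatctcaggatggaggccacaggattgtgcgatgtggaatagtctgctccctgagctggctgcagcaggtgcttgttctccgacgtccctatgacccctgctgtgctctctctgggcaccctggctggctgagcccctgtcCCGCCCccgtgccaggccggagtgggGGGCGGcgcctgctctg
Htr2c upstream: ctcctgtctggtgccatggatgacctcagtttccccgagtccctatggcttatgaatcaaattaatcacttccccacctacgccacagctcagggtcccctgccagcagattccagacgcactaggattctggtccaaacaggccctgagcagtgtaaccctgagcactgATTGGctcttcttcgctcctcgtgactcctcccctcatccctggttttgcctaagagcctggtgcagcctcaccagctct
The *Kl* window had 2 GGGCGG matches and a GC content of 66.8%, and the *Htr2c* window had 1 CCAAT match and a GC content of 55.6%, beside a median GC of 52.4% over all promoters. Over the same 250 bases of 32851 promoters, GGGCGG occurred in 32.7%, CCAAT in 33.8%, TATAAA in 12.4% and TAATCC in 6.25%. Such matches are frequent and describe letters only.

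The deep and shallow clusters and the barcodes over 6000 genes carried the same genes at different levels. *Ttr* was at 235442 CPM in the deep cluster, 352737 CPM in the shallow one and 253653 CPM in barcodes over 6000 genes. *Prlr* was at 900, 998 and 2275 CPM in these 3 groups. By library *Prlr* ran from 1961 to 2410 CPM in the barcodes over 6000 genes and from 499 to 1135 CPM in the deep cluster. *Htr2c* was at 270, 475 and 592 CPM in the 3 groups. By library it ran from 156 to 325 CPM in the deep cluster and from 548 to 617 CPM in the barcodes over 6000 genes. The share of all genes that separate these groups was not taken, and their median depths were 7170 and 92990 UMIs. These values therefore describe the named genes only. *Sostdc1* was highest in the shallow cluster, at 1413 CPM against 778 and 1044 CPM. *Clic6* was lowest there, at 295 CPM against 395 and 442 CPM. With no upper limit on genes, *Prlr* in the class was at 1908 CPM and *Htr2c* at 515 CPM, and with a mitochondrial limit of 10% in place of 25% they were at 355 and 153 CPM. Under the limit of 10% *Igfbp2* was at 1132 CPM, *Sostdc1* at 563 CPM and *Igf2* at 203 CPM, each also lower by more than 1.5 times. Median mitochondrial shares were 7.44%, 10.8% and 18.1% in the deep cluster, the shallow cluster and the barcodes over 6000 genes, and their part in these differences was not tested.

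Most *Ttr* molecules of the hippocampus were in few barcodes. The 79 choroid plexus-like barcodes over 6000 genes held 69.3% of the 2888998 *Ttr* UMIs. The choroid plexus-like class held 26.0%, and all other kept barcodes together held 0.762%. By library, all barcodes over the limit, 377 in the hippocampus and not only these 79, held 73.3%, 74.9% and 65.2%.

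Within the deep cluster, single barcodes ranged widely. The *Ttr* share of a barcode's UMIs ran from 0.704% to 47.4%, with a median of 23.0% and quartiles of 8.24% and 31.1%. In the barcodes over 6000 genes it ran only from 15.5% to 36.5%. Across the 200 barcodes, the *Ttr* share was related to the mitochondrial share, with a Spearman correlation of 0.73, and little to the total, with a correlation of 0.18. The correlation with the mitochondrial share was -0.34 in the 623 barcodes of the shallow cluster and 0.09 in the 79 over 6000 genes. These points share 3 libraries and 1 suspension, and the correlations are descriptions.

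**Figure D2:**
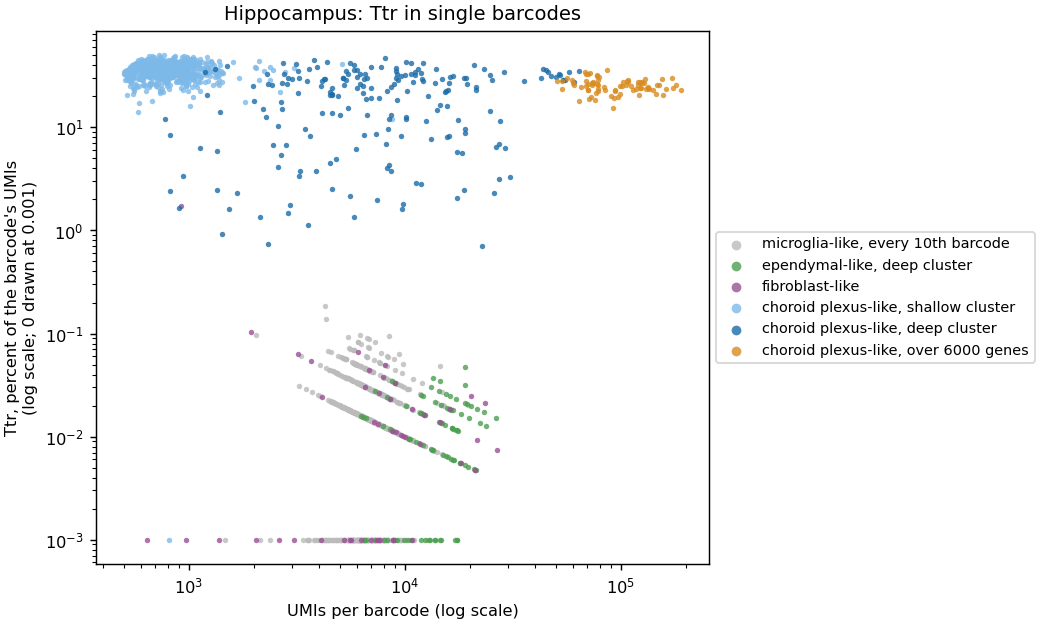
*Ttr* as a percentage of the UMIs of single hippocampal barcodes against their total UMIs (both axes logarithmic, 0 drawn at 0.001). The deep choroid plexus-like cluster spreads from 0.704% to 47.4%, the shallow cluster and the barcodes over 6000 genes lie mostly above 15%, and the ependymal-like, fibroblast-like and microglia-like barcodes lie mostly below 0.1%, on lines of 1, 2 and 3 UMIs.

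The other genes of the set changed along this range, with 1 exception. The 200 barcodes were placed in 5 bins of *Ttr* share (under 5%, 5 to 10%, 10 to 20%, 20 to 30% and at least 30%), which held 35, 24, 28, 53 and 60 barcodes. To avoid the pull of *Ttr* on its own denominator, levels were taken per 1000000 UMIs other than *Ttr*. *Enpp2* was at 1233 in the lowest bin and at 23692 in the highest, *Sostdc1* at 66.2 and 1940, and *Prlr* at 88.3 and 1835. *Folr1* was at 121 and 2059, *Igfbp2* at 213 and 3549, and *Htr2c* at 47.8 and 554. *Igf2*, at 143 and 606, and *Kl*, at 342 and 1159, spanned a smaller range. *Clic6* stood apart from these, at 522, 540, 531, 559 and 462 over the 5 bins. In the same bins the median mitochondrial share was 0.647%, 1.36%, 6.70%, 10.5% and 14.2%, and the ependymal markers were at 1272, 1402, 1045, 576 and 457 CPM. The choroid plexus markers rose along the bins as well, at 3394, 4320, 5452, 8460 and 8735 CPM. Both marker sums are per 1000000 UMIs with *Ttr* included, unlike the gene levels above, so their changes along the bins are not on the same base. The part of all these in the range was not tested.

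The other genes of the pathways in which the set works moved in both directions. Of 86 such genes on 9 lists, 50 reached the average of 10 CPM, of which 16 were higher and 18 lower in choroid plexus-like barcodes. These counts are read beside the 7.25% of all genes that were higher and the 34.9% that were lower. Most of the higher genes, 10 of 17 tested, were on the list of ion and water transport, 4 of them (*Aqp1*, *Car12*, *Kcnj13* and *Slc4a5*) markers used to name the clusters. *Kcnj13*, a potassium channel, had a fold of 122 and *Car12*, a carbonic anhydrase, one of 30.4. *Kcne2*, a potassium channel subunit that was not used for naming, was at 305 ± 9.88 CPM against 0.294 ± 0.159 CPM elsewhere, a fold of 58.6. Of the relatives of *Clic6*, *Clic4* was 14.1-fold and *Clic5* 6.78-fold lower.

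For the vitamin and hormone that *Ttr* carries, *Stra6*, the receptor for retinol-binding protein, was at 38.1 ± 9.65 CPM and 2.80-fold higher, and the thyroid hormone receptor *Thra* was 4.28-fold lower. Beside *Folr1*, 1 of 3 folate genes tested was higher, *Ggh*, a hydrolase of folate polyglutamates, by 2.73-fold.

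On the list of lysophosphatidic acid, the product of *Enpp2*, 3 of 5 genes tested were lower and none was higher, beside 34.9% of all genes lower. They were *Plpp3*, a phosphatase that degrades lysophosphatidic acid, by 25.4-fold, and the receptors *Lpar1*, by 21.8-fold, and *Lpar6*. The other 2, *Plpp1* and *Plpp2*, phosphatases of the same family, had folds of 1.20 and 1.17. For the insulin-like growth factors, 4 of 6 genes tested were lower, led by the receptor *Insr* at 3.61-fold and the binding protein *Igfbp7* at 3.36-fold, while *Igf2r*, which clears the factor *Igf2*, was 2.60-fold higher. Per 1000000 UMIs other than *Ttr*, the lower call of *Igf1r* was lost, and *Lpar4*, on the list of lysophosphatidic acid, gained a lower call.

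The remaining lists had few genes tested. Beside *Kl*, the receptors *Fgfr3* and *Fgfr2* were 7.64-fold and 2.43-fold lower of 3 tested, and *Fgfr2* lost its call per 1000000 UMIs other than *Ttr*. Beside *Prlr*, *Jak2*, the kinase through which the receptor signals, was 4.04-fold lower of 4 tested. Per 1000000 UMIs other than *Ttr*, *Cish* of the same list gained a call and was 3.39-fold higher, beside 10.6% of all genes. Beside *Sostdc1*, *Bmp7* was 4.17-fold higher and the receptor *Bmpr2* 5.03-fold lower of 6 tested. Beside *Htr2c*, 1 of 10 serotonin genes was tested, *Maoa*, which breaks down serotonin, and it was 4.68-fold lower.

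The ependymal-like class held 211 hippocampal barcodes, and 2 of the 10 genes were called higher in it. Its own markers reached 9793 to 10259 CPM by library, and 11 of the 16 choroid plexus markers had UMIs there, at 1783 to 2042 CPM in sum, a value whose part in the levels was not tested. *Folr1* was at 319, 271 and 323 CPM, or 304 ± 29.1 CPM, a fold of 53.9 over other kept barcodes without the choroid plexus-like ones. *Sostdc1* was at 202, 191 and 236 CPM, or 209 ± 23.9 CPM, a fold of 38.1. Both were thus lower than in choroid plexus-like barcodes in each library and well above the remaining classes. In all, 6 of the 10 genes were tested, 2 were higher, beside 15.2% of all genes, and 2 were lower, beside 15.9%.

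The lower genes were *Enpp2*, at 60.2 ± 12.9 CPM, and *Igf2*, which had 0 UMIs in 211 barcodes, with an upper bound of 2.36 CPM. For *Enpp2* the comparison included oligodendrocyte-like barcodes, at a mean of 1999 CPM. Its means in microglia-like and astrocyte-like barcodes, 15.1 and 26.4 CPM, were below the ependymal-like one. *Ttr* itself was at 169 ± 42.5 CPM, below the 194 ± 41.8 CPM of the comparison barcodes in each library. *Ttr* was thus present but not raised in the class in which *Folr1* and *Sostdc1* were higher, and the source of these RNAs was not tested. *Htr2c* and *Kl* had 1 UMI each, *Prlr* had 5 and *Clic6* had 7. *Igfbp2* had 188 UMIs, at 120 CPM pooled over the libraries, and was called in neither direction. In the 96 deeper ependymal-like barcodes, none of which was shared, *Folr1* was at 310 CPM with UMIs in 93.8% of barcodes, and *Sostdc1* at 204 CPM with UMIs in 76.0%.

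The fibroblast-like class held 49 hippocampal barcodes, none of them shared, and 3 of the genes were called higher in it. *Igf2* was at 2590, 3309 and 2113 CPM, or 2670 ± 602 CPM, above its level in choroid plexus-like barcodes in each library. *Igfbp2* was at 2795, 5733 and 3464 CPM, or 3998 ± 1540 CPM, likewise above. *Kl* was at 84.3, 130 and 82.6 CPM, or 99.1 ± 27.1 CPM, below its level in choroid plexus-like barcodes. Over other kept barcodes without the choroid plexus-like ones the folds were 137, 70.4 and 18.0. Of 5 genes tested, 3 were higher, beside 5.75% of all genes, and *Enpp2*, at 98.7 ± 54.2 CPM, was lower, beside 9.61%. The comparison level of *Enpp2*, 456 ± 33.4 CPM, included oligodendrocyte-like barcodes at a mean of 1999 CPM. In microglia-like, astrocyte-like and endothelial-like barcodes its means were 15.1, 26.4 and 59.9 CPM, below the fibroblast-like mean.

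*Folr1*, *Sostdc1* and *Htr2c* had 0 UMIs in the 49 fibroblast-like barcodes, with an upper bound of 8.60 CPM each. *Ttr* was at 422, 130 and 124 CPM, and the high value of library 1 fell to 231 CPM when the barcode with most *Ttr* was left out. The fibroblast markers of the class reached 16022 to 25691 CPM and the pericyte markers 8035 to 11627 CPM. The part of pericytes in its values was not tested.

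Outside these classes, 2 of the genes had a strong second site. *Enpp2* was at 1999, 2007 and 1991 CPM in oligodendrocyte-like barcodes, the myelin-forming cells, and at 478 ± 13.6 CPM in oligodendrocyte precursor-like ones. The replicates hardly differed. The precursor-like class pooled a cluster of 354 barcodes with a median of 3180 UMIs and a cluster of 183 with a median of 19569. The latter was led by *Tnr* and *Gpr17*, and its deeper barcodes weigh more in the summed level. *Igf2* was at 505, 441 and 476 CPM in pericyte-like barcodes, above the choroid plexus-like level in each library, and *Igfbp2* was at 382 ± 18.0 CPM in astrocyte-like barcodes.

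**Figure D3:**
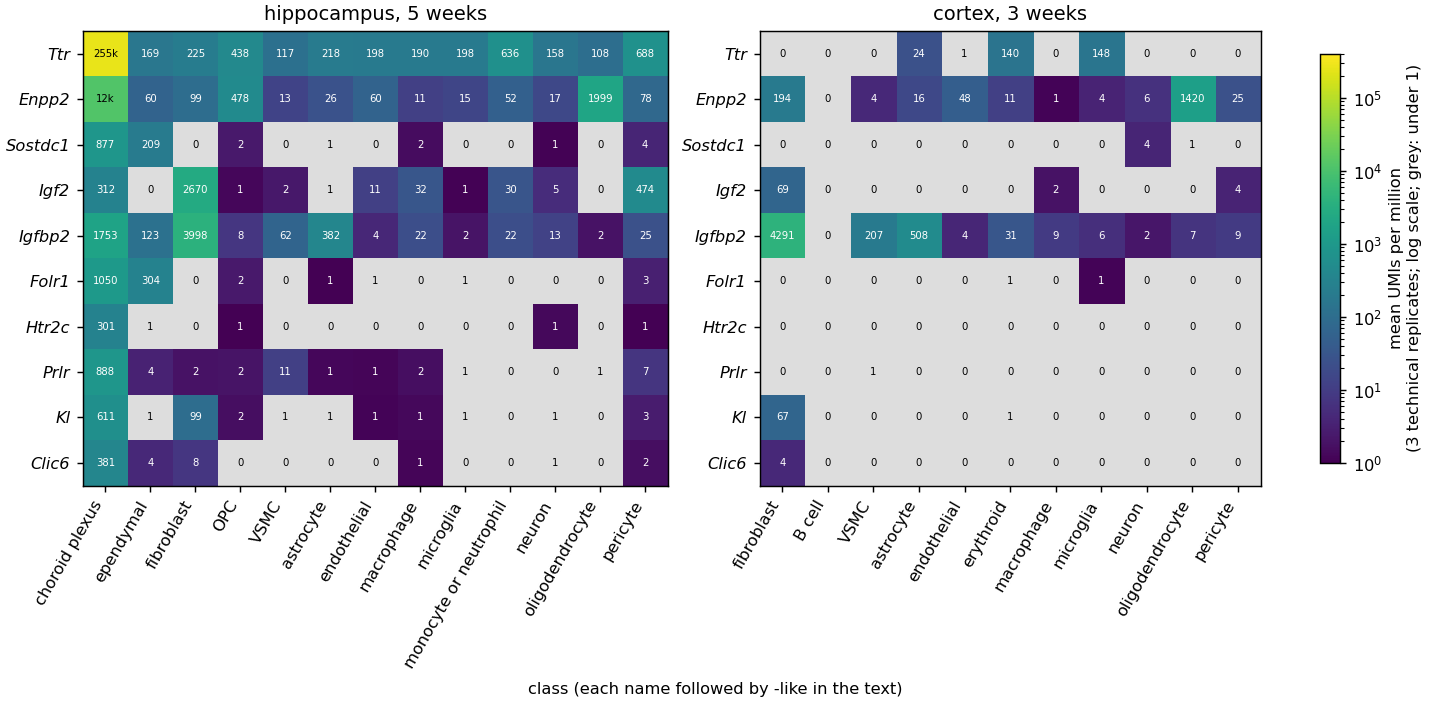
Mean level of each gene (UMIs per 1000000, colour on a log scale, printed in each cell) in the named classes of the hippocampus at 5 weeks and the cortex at 3 weeks, over 3 technical replicates. *Ttr* is present in each hippocampal class, *Folr1* and *Sostdc1* have a second site in ependymal-like barcodes, *Igf2* and *Igfbp2* in fibroblast-like barcodes and *Enpp2* in oligodendrocyte-like barcodes.

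*Ttr* was found at a low level in all 12 other named hippocampal classes. After the barcode with most *Ttr* was left out of each class, the level ran from 94.5 CPM in vascular smooth muscle cell-like barcodes to 627 CPM in monocyte or neutrophil-like ones, or from 0.488 to 2.39 UMIs per barcode. Of the 124 monocyte or neutrophil-like barcodes, which had a median of 587.5 UMIs, 81 were shared between libraries. Single barcodes decided some unadjusted values. The level of 669 CPM in pericyte-like barcodes became 201 CPM without 1 barcode of 920 *Ttr* UMIs in library 3, and the level of 412 CPM in oligodendrocyte precursor-like barcodes became 167 CPM without 1 barcode of 1186 *Ttr* UMIs in the same library.

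In microglia-like barcodes 69.7% had a *Ttr* UMI at a median depth of 6648 UMIs, and 17.9% did when barcodes were thinned to 1000 UMIs. In choroid plexus-like barcodes, of median depth 875 UMIs, 99.9% had one, and all 318 deep enough to be thinned did. Shares of fibroblast-like and ependymal-like barcodes with *Ttr*, 63.3% and 63.0% before thinning and 21.7% and 21.2% after, had intervals of 10.9% to 36.4% and 14.6% to 29.2% after thinning, which include the microglial share. These intervals cover the counting of barcodes of 1 suspension, and the source of *Ttr* in these classes was not tested. The 355 hippocampal barcodes with fewer than 250 genes held 30006 CPM of *Ttr*, and 12845 CPM without shared barcodes.

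RNA from 1 source keeps its genes in 1 ratio. In choroid plexus-like barcodes 4.64 *Enpp2*, 0.689 *Igfbp2*, 0.414 *Folr1* and 0.119 *Htr2c* UMIs were counted per 100 *Ttr* UMIs. The *Ttr* UMIs of each class were multiplied by these ratios and compared with what was counted. Of 108 pairs of 12 classes and 9 genes, 33 had at least 10 UMIs and at least 2 times the scaled count. They comprised *Igfbp2* in 10 classes, *Enpp2* in 9, *Igf2* in 7, *Prlr* in 3, *Kl* in 2, and *Folr1* and *Sostdc1* in 1 each, the ependymal-like class. *Clic6* and *Htr2c* had no such class, since their pairs above 2 times all had fewer than 10 UMIs. *Clic6* was at 17.7 times (interval 7.11 to 36.4) from 7 UMIs in ependymal-like barcodes. In fibroblast-like ones it was at 34.5 times (9.41 to 88.5) from 4 UMIs. *Htr2c* was at 6.71 times (2.70 to 13.8) from 7 UMIs in neuron-like barcodes. In pericyte-like barcodes *Enpp2* was at 23.0, 23.5 and 188 CPM in libraries 1 to 3, and *Prlr* at 3.06, 1.47 and 17.5 CPM. Library 3 held the barcode of 920 *Ttr* UMIs, which was not left out of these counts.

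The largest excess was that of *Igf2* in fibroblast-like barcodes, 12197 times its scaled count, followed by *Igfbp2* in the same class at 3366 times. *Igf2* in pericyte-like barcodes reached 590 times (interval 552 to 629), *Folr1* in ependymal-like barcodes 427 times (389 to 467), and *Enpp2* in oligodendrocyte-like barcodes 391 times (388 to 395). *Sostdc1* in ependymal-like barcodes was at 347 times (310 to 387), *Igfbp2* in astrocyte-like barcodes at 255 times, and *Kl* in fibroblast-like barcodes at 233 times (170 to 313). *Prlr* in vascular smooth muscle cell-like barcodes was at 25.6 times, from 14 UMIs. The ratios were taken from the choroid plexus-like class, which held 26.0% of the *Ttr* UMIs. The barcodes over 6000 genes had more *Prlr* per *Ttr*, at 2275 beside 253653 CPM. The *Prlr* pairs of pericyte-like barcodes, at 2.99 times, and oligodendrocyte-like ones, at 2.06 times, therefore depend on which barcodes give the ratio. The pair of vascular smooth muscle cell-like barcodes, at 25.6 times, lay far above 2. With no upper limit on genes, *Enpp2* in the class was at 16070 and *Kl* at 830 CPM beside 254496 CPM of *Ttr*. Within the limit they were at 11926 and 613 CPM beside 256813 CPM. Pairs near 2 thus depend on it too, such as *Enpp2* in neuron-like barcodes at 2.27 and *Kl* in endothelial-like ones at 2.39. The count of 33 pairs was not repeated without the limit. The part of released RNA was not tested.

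**Figure D4:**
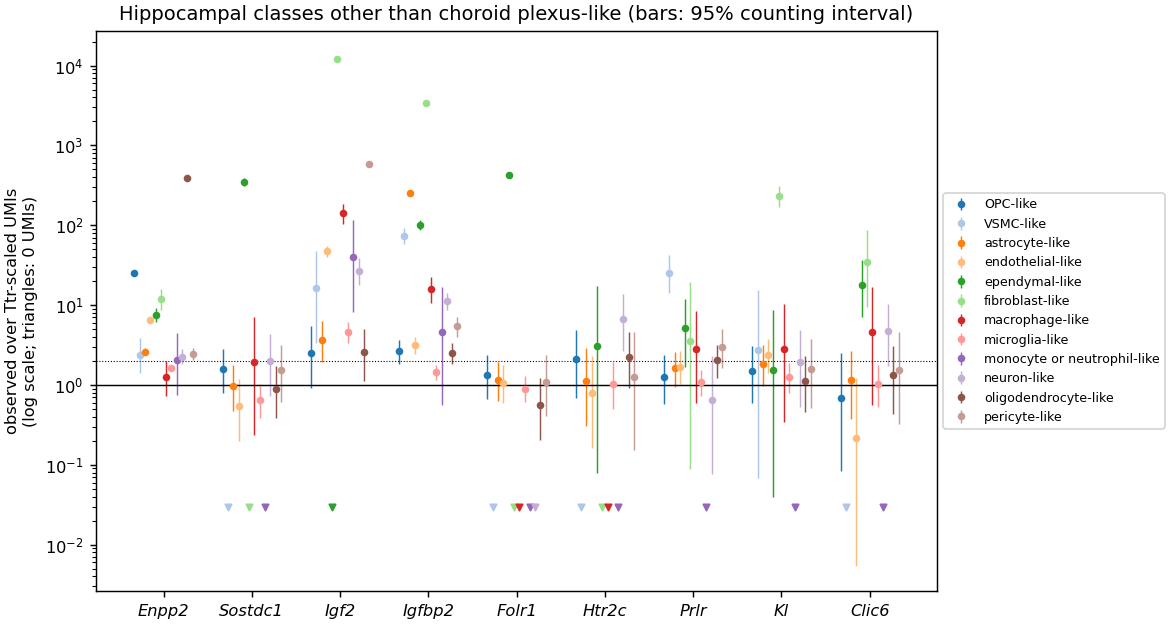
Counted UMIs of 9 genes divided by the number that their ratio to *Ttr* in choroid plexus-like barcodes gave (log scale), for each other hippocampal class. Bars are 95% counting intervals, the solid line is a ratio of 1, the dotted line is 2, and triangles stand for 0 UMIs. In microglia-like barcodes *Htr2c* and *Folr1* lie at 1.04 and 0.901, while *Igf2* and *Igfbp2* in fibroblast-like barcodes lie at 12197 and 3366.

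In the cortical libraries *Ttr* was rare. Of 17937 barcodes 73, or 0.407%, had a *Ttr* UMI, against 70.9% of 15336 in the hippocampus. The cortical libraries held 10770, 3994 and 670 *Ttr* UMIs, which was 0.0272%, 0.00962% and 0.00159% of their totals. Of these 15434 UMIs, 99.2% were in 10 barcodes with 441 to 3937 each, of which 6 were in library 1, 3 in library 2 and 1 in library 3. The barcode next in order had 30. Between 3.11% and 33.8% of the UMIs of these 10 barcodes were *Ttr*, and 5 to 11 of the 16 choroid plexus markers had UMIs in each. By their own markers 8 were choroid plexus-like and the others ependymal-like. That rule named 22 cortical barcodes choroid plexus-like in all, so it also named barcodes with 30 or fewer *Ttr* UMIs.

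The same 10 barcodes carried the rest of the set. They held 92.3% of all cortical *Htr2c* UMIs, 79.3% of *Clic6*, 64.2% of *Folr1*, 62.9% of *Prlr*, 61.5% of *Sostdc1* and 36.8% of *Kl*, but 11.7% of *Enpp2*, 2.83% of *Igf2* and 1.05% of *Igfbp2*. Their summed levels were 140546 CPM for *Ttr*, 4983 CPM for *Enpp2* and 1432 CPM for *Igfbp2*. They had been chosen for their *Ttr*, and the levels describe these barcodes only.

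In 6 of the 11 named cortical classes *Ttr* had no UMI. In the fibroblast-like class this was 0 of 57 barcodes, which by a limit of 3 counts allows a share of barcodes with a UMI of up to 5.26% and sets no limit on cells that express the gene. In microglia-like barcodes the level was 260, 163 and 171 CPM in the hippocampus and 441, 2.08 and 0.173 CPM in the cortex, with cortical library 1 far above the others. The log2 ratio of hippocampus to cortex was 0.45 (interval 0.40 to 0.50), and the replicates overlapped. Of the 5081 cortical UMIs, 5039 were in 2 barcodes. Without them the cortex was at 1.20 CPM, and the log2 ratio was 7.36 (interval 6.93 to 7.84). Of the genes with an average of at least 10 CPM over the regions, 0.55% were higher in hippocampal microglia-like barcodes by 2-fold with no overlap of replicates. *Enpp2* fell below that average, at 20.4, 10.7 and 14.3 CPM in the hippocampus and 10.3, 0.333 and 0.260 CPM in the cortex, where library 1 was again the highest. The same 2 barcodes, both of library 1, held 75 and 32 of the 125 *Enpp2* UMIs of cortical microglia-like barcodes.

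Fibroblast-like barcodes of both regions could be set side by side. *Igf2* was at 74.6, 43.7 and 88.1 CPM in the cortex, or 68.8 ± 22.8 CPM, and the hippocampal replicates, 2113 to 3309 CPM, lay above all of these. The ratio was 37.8 on the linear scale, with a log2 ratio of 5.24 (interval 4.81 to 5.70). *Igfbp2* overlapped, at 4291 ± 1155 CPM in the cortex and a log2 ratio of -0.01 (interval -0.09 to 0.08). *Kl* was at 67.2 ± 24.5 CPM in the cortex, and its replicates overlapped as well. Of all genes 5.42% were higher in the hippocampus by 2-fold with no overlap. The fibroblast markers reached 18040 to 30264 CPM in the cortex, and the pericyte markers 5742 to 7627 CPM, below the hippocampal range.

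*Igf2* in pericyte-like barcodes showed the same direction, at 4.31, 2.63 and 3.88 CPM in the cortex against 474 ± 32.2 CPM in the hippocampus, a log2 ratio of 7.05 (interval 6.34 to 7.86). Of all genes 6.53% were higher in these barcodes by 2-fold with no overlap. The pericyte markers of the class reached 38215 to 39924 CPM in the hippocampus and 14947 to 16793 CPM in the cortex, and the fibroblast markers 804 to 927 and 393 to 423 CPM. Their part in the *Igf2* level was not tested. In macrophage-like barcodes *Igf2* was at 31.9 ± 1.95 and 1.87 ± 1.72 CPM and in endothelial-like ones at 11.3 ± 1.12 and 0.141 ± 0.00374 CPM. *Enpp2* in oligodendrocyte-like barcodes was at 1420 ± 62.8 CPM in the cortex, a log2 ratio of 0.49, from 66 cortical barcodes. *Igfbp2* in astrocyte-like barcodes was at 508 ± 69.7 CPM in the cortex, a log2 ratio of -0.41. In vascular smooth muscle cell-like barcodes it was lower in the hippocampus, at 62.5 ± 44.3 against 207 ± 21.8 CPM (log2 ratio -1.79), and in pericyte-like barcodes it was higher, at 24.7 ± 12.3 against 8.79 ± 2.02 CPM (log2 ratio 1.52). Age, region and preparation cannot be told apart in any of these. Nor can the software version and gene list of the deposited matrices, which also differed between the regions. Their part in the *Igf2* values was not tested.

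The genes outside the set most like *Ttr* in pattern were sought over the 39 sums of 13 hippocampal classes and 3 libraries, by the Pearson correlation of log2(CPM + 5) among 14092 genes. They were *Kcne2* (0.953), *Defb11* (0.952), *Slc16a8* (0.950), *Otx2os1* (0.948) and the marker *Slc4a5* (0.948). Within the set, *Htr2c* (0.951), *Clic6* (0.913) and *Prlr* (0.913) followed *Ttr* most closely, *Kl*, *Sostdc1*, *Folr1* and *Enpp2* lay between 0.663 and 0.797, and *Igfbp2* (0.436) and *Igf2* (0.406) least. Most like *Enpp2* were *Car14* (0.871), *Pcolce2* and *Pcsk2os1*. Most like *Igf2* were *Slc6a20a* (0.917), *Syt12* and *Rhod*, and most like *Igfbp2* were *Echdc3* (0.886), *Bmp7* and *Slc13a4*. The 39 points share libraries and classes, and the correlations are descriptions.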

How the data were processed

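The authors deposited raw UMI counts per gene and barcode, not normalized, for barcodes already called as cells, with 6 libraries used here. Cell Ranger 5.0.1 with the genome mm10 is named in the methods, whereas the matrix headers give 3.0.1 (cortex) and 3.1.0 (hippocampus). Prep 2 of the study was not analysed here. From the deposited counts, barcodes were kept if they had 250 to 6000 genes and a mitochondrial share below 25%. Each region was clustered in Seurat 5.3.0 (R 4.3.3) after log-normalization to 10000, choice of 2000 variable genes without the 10 members, canonical correlation integration of replicates, and 30 components at resolution 0.5. A marker counted when found in at least 20% of a cluster and 2-fold higher than elsewhere, and names needed 3. Doublets were scored with Scrublet (scanpy 1.11.5) and kept. Levels were computed in Python 3.11.15 with numpy 2.4.6, scipy 1.17.1 and pandas 2.3.3; intervals are exact Poisson, Clopper-Pearson or conditional binomial. The fold step was tested on simulated data. Coordinates come from GENCODE M21.

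The genes and lists were chosen with earlier results of these data known. Named were the 10 members and, from each list, up to 3 other genes called higher and 2 called lower with the largest fold and a level of at least 10 CPM, and for likeness the 5 genes nearest *Ttr* and the 3 nearest *Enpp2*, *Igf2* and *Igfbp2*. *Igf1r*, *Lpar4*, *Lpar6*, *Plpp1*, *Plpp2*, *Cish* and the naming markers were named besides after their values were seen. Alternatives covered the mitochondrial limit, the limit on genes, shared barcodes, doublets, class naming, the fold and the added CPM. Some genes that the rule names are not reported here.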

Additional observations from a re-analysis of the deposited data

Results flagged for a closer look

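The choroid plexus-like barcodes with more than 6000 genes, which enter no comparison between classes, held 69.3% of all hippocampal *Ttr* UMIs, more than the choroid plexus-like class itself, and were noted as a signal in data left out by the filter. They were 79 barcodes, 36, 23 and 20 in libraries 1 to 3, and 58 of them had a copy of the same barcode in another library. Scrublet called 1 of them a doublet. The smooth muscle markers ran from 6.72 to 1047 CPM over the libraries in these barcodes, and the choroid plexus markers from 8852 to 9418 CPM.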

How the results depend on the processing

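The share of choroid plexus-like barcodes, 5.79%, moved to 1.99% without shared barcodes, 2.92% with a mitochondrial limit of 10%, 3.27% with each shared barcode kept once, 4.05% when each barcode was classed by its own markers, and 3.74% with no upper limit of genes and each shared barcode once. The pooled *Ttr* level, 256813 CPM, moved to 170372 CPM under the limit of 10% and to 340798 CPM as a median over barcodes. The 16 other list genes called higher became 10 under the limit of 10% and 8 with a fold of 4. The log2 ratio of *Ttr* in microglia-like barcodes, 0.45, reversed to -0.91 under the limit of 10%, and ran from -0.043 to 7.19 when 1 replicate was left out: 7.19 without replicate 1, -0.021 without replicate 2 and -0.043 without replicate 3. It was 7.36 without microglia-like barcodes that had UMIs for 3 or more choroid plexus markers, an alternative chosen after seeing the data. The alternative with no upper limit of genes and each shared barcode once was also chosen then. The causes were not tested, except that the alternative on choroid plexus markers removes 2 barcodes with 5039 UMIs. The count of 10 genes higher in choroid plexus-like barcodes was unchanged under the alternatives it was run for, which were those on shared barcodes left out, doublets, resolution, mitochondrial limit, replicates, added CPM, fold, CPM filter and the deep cluster alone. As a median over barcodes, *Igf2*, *Htr2c*, *Kl* and *Clic6* were at 0 CPM. Over all 10 genes, 107 of 140 alternative levels in choroid plexus-like barcodes stayed within 1 SD. Leaving out 1 replicate could hardly move a level past the SD of the same 3 replicates, and the alternative resolution returned identical levels. The count of 107 is therefore not a measure of stability. No paired analysis was possible because replicate numbers mark technical runs of 1 pool per region and no test was made. With 49 to 57 fibroblast-like barcodes, counts of 0 to 4 UMIs cannot tell absence from a low level.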
